A study of Mus musculus with 6 samples.

Results

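The 10 genes described here form the transcription factor ATF4 and its best known partners and stress effectors: Atf4, Atf5, Atf3, Ddit3, Cebpb, Nupr1, Trib3, Chac1, Sesn2 and Ddit4. They were picked by symbol from a table of 53110 genes, of which 52438 carried values, and all 10 were found. The 10 were selected on the same contrast that is described below, with their difference between genotypes already known, so their values are a description and no test of them is given. RNA was sequenced from mouse primary neural stem cells (NSCs) of the cortex, WT or Setd5+/-, with 3 samples labelled for each genotype. Both genotypes were kept attached on Matrigel with FGF and EGF in incubators at 21% O2, and the mutation had been made with CRISPR-Cas9. SETD5 is a chromatin protein with a SET domain. In the column names of the deposited table all 3 WT samples carry 1 index and 1 lane, and all 3 Setd5+/- samples carry another index, another lane and 1 clone name, A3.

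The 3 samples of a genotype differed by no more than random sampling of read pairs (chi-square per degree of freedom 0.961 to 0.986 within a genotype, against 34.85 to 34.98 between genotypes, with both ends of a pair taken as 1 count). They were therefore counted as 3 parts of 1 library, so that n = 1 for each genotype and no p-value or SD is given. Depth was 9995980 to 10004948 reads on genes in each WT part and 7143309 to 7146147 in each Setd5+/- part. Clone, index, lane and genotype cannot be told apart in these samples. Setd5 itself had 2676 normalized counts in the WT library and 2065 in the Setd5+/- library, a ratio of 0.772 (95% counting interval 0.736 to 0.809). A normalized count is the number of reads on a gene divided by a size factor of the sample. Intervals here cover the counting error of reads alone, not the difference between cultures or clones. Genes whose mean reached 10 normalized counts are called measured genes, of which there were 16266. A gene is called 2-fold higher or lower when the log2 fold change of the normalized count + 1 reached 1 or -1.

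ATF4 is a bZIP transcription factor at the end of the integrated stress response. Kinases that sense lack of amino acids, misfolded protein in the endoplasmic reticulum (ER), double-stranded RNA or heme shortage phosphorylate the initiation factor eIF2, and mitochondrial stress reaches the same kinases. Translation then falls in general, while Atf4, Atf5 and Ddit3 mRNAs, which hold short reading frames upstream of the coding one, are translated more. The ATF4 protein pairs with other bZIP factors such as the C/EBP proteins on composite elements near genes of amino acid uptake, amino acid synthesis and tRNA charging. RNA-seq measures the mRNA of these factors and not their translation.

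The C/EBP-ATF composite element was looked for in the promoters. Sequence was not used in choosing the genes, but they were grouped as members of the ATF4 pathway. The shares below are therefore a description. Promoters run from 250 bases before to 50 bases after an annotated start (RefSeq, GRCm38.p6), and the 10 genes have 11 of them because Atf5 has 2. The motif TGATGNAA on either strand was present in 4 of the 11 promoters, those of Atf3, Chac1, Nupr1 and Trib3, in 3.97% of 32851 mouse promoters and in 2.16% of the 13080 that belong to measured genes. Its form TGATGCAA, a subset of these matches with C at the open base, was present in 3 of the 11, in 0.895% of all promoters and in 0.535% of those of measured genes. The 4 promoters with a match are shown because they carry the only composite elements found, with the match in capitals. They lie at chr1:191183284-191183583 (Atf3, minus strand), chr2:119350992-119351291 (Chac1, plus strand), chr7:126625421-126625720 (Nupr1, minus strand) and chr2:152344011-152344310 (Trib3, minus strand), and each is written 5′ to 3′ along its gene.
Atf3: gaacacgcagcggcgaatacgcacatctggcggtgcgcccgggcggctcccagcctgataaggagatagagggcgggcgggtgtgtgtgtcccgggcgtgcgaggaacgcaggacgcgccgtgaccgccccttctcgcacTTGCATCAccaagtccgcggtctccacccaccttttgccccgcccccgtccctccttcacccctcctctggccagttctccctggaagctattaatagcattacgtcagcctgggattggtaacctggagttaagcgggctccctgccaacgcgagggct
Chac1: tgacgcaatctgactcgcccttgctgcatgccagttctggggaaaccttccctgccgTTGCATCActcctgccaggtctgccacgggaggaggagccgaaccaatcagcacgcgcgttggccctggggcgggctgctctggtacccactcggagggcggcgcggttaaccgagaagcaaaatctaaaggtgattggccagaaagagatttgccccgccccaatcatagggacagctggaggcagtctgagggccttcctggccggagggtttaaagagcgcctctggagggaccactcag
Nupr1: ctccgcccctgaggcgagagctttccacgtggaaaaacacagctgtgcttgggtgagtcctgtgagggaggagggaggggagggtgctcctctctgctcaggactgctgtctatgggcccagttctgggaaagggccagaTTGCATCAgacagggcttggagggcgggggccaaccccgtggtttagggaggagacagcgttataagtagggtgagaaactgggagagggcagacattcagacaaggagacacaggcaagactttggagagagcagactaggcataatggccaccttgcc
Trib3: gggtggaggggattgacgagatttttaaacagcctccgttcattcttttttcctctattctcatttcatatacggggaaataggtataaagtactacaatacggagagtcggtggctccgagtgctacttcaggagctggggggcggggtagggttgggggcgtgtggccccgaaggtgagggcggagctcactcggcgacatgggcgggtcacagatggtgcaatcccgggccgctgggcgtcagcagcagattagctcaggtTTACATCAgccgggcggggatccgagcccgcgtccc
In Atf3 and Nupr1 the match, TTGCATCA, began at the same position, -110 from the start. In Chac1 the same letters began at -193. In Trib3 the match was TTACATCA and lay after the start, from base 15 of the transcribed part. Each of these is the reverse strand of the motif. The cyclic AMP response element TGACGTCA was in none of the 11 promoters, in 1.79% of all and in 3.11% of those of measured genes. TATAAA was in 2 of the 11, those of Trib3 and Cebpb, in 13.6% of all and in 6.80% of those of measured genes. A match is a run of letters and was not measured as a bound site, and absence of these letters from a 300-base window says nothing about a factor. Counted on 1 coding transcript a gene, 6 of the 10 mRNAs held an ATG upstream of the coding start, with 3 in Atf4, 2 in Atf5 and 2 in Ddit3, against 52.1% of 12497 measured coding genes with at least 1.

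All 10 genes had a higher mean in Setd5+/- than in WT, as had 7953 of the 16266 measured genes. Of the 10, 7 were at least 2-fold higher and 0 were 2-fold lower. Over all measured genes 10.3% (1668) were at least 2-fold higher and 6.14% (998) at least 2-fold lower. Since the 10 were chosen by this difference, nothing is read from the contrast of these shares. The median log2 fold change of the 10 was 2.41, beside -0.02 over all measured genes. The ratios ran from 1.08 for Ddit4 to 603 for Trib3, and 4 of the 10 were among the 1% of measured genes with the largest log2 fold changes.

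**Figure D1:**
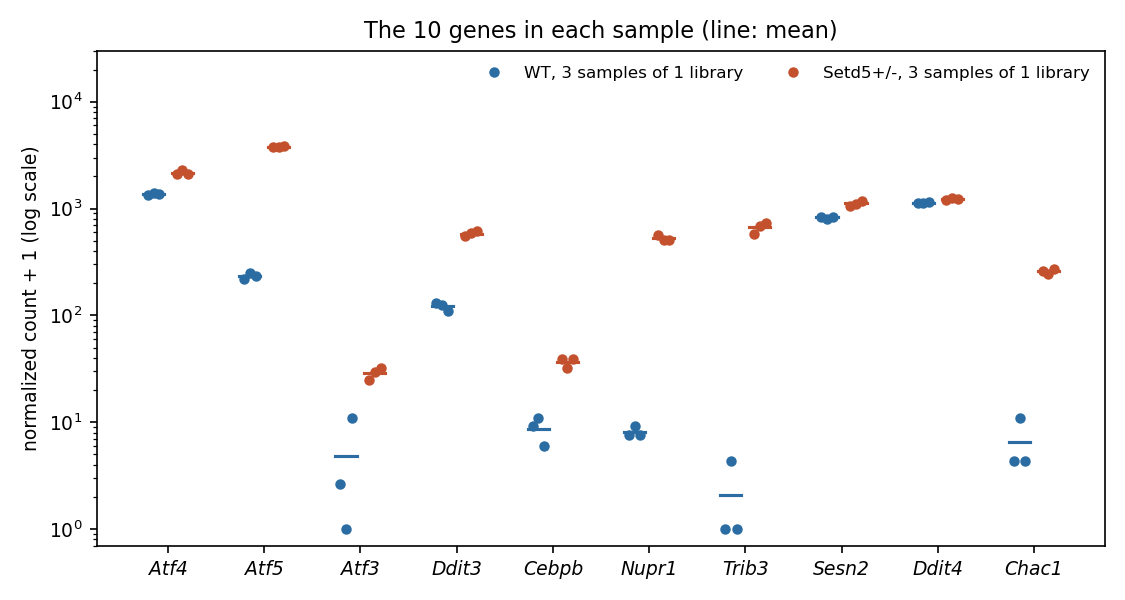
Normalized count + 1 on a log axis for each of the 10 genes in the 3 WT samples (blue) and the 3 Setd5+/- samples (orange), with a line at the mean. Trib3, Nupr1 and Chac1 sit below 11 in every WT sample and above 240 in every Setd5+/- sample, while Atf4, Sesn2 and Ddit4 are at 806 or more in all 6 samples.

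Among the transcription factors, Atf4 mRNA itself differed least. Atf4 (chromosome 15, ENSMUSG00000042406) had normalized counts of 1353, 1388 and 1374 across the WT parts and of 2098, 2289 and 2099 across the Setd5+/- parts. The ratio was 1.58 (95% counting interval 1.49 to 1.66), with a log2 fold change of 0.66. The gene stayed short of 2-fold.

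Atf5, a bZIP factor close to ATF4 that is linked to mitochondrial stress, differed far more. Its normalized counts were 221, 251 and 232 in WT and 3761, 3781 and 3813 in Setd5+/-, a ratio of 16.2 (14.6 to 17.9). The libraries were wide apart. The values within a genotype are parts of the same library, so their closeness says nothing about other cultures or clones. Of the measured genes, 85 had a larger log2 fold change. Per kb of exon, so that genes can be compared, Atf5 stood at 118 normalized counts in WT and at 1899 in Setd5+/-, where Atf4 had 582 and 917. The ratio of Atf5 to Atf4 on this scale was thus 0.202 in WT and 2.07 in Setd5+/-, and the order of the pair was reversed.

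Ddit3 encodes CHOP, a C/EBP family factor made under prolonged stress. Its normalized counts were 131, 124 and 110 in WT and 547, 587 and 610 in Setd5+/-, a ratio of 4.77 (4.11 to 5.56). The lowest Setd5+/- part was several times the highest WT part, but parts of the same library do not show how cultures or clones vary. Cebpb, which encodes a C/EBP partner of ATF4, was a gene of low counts. Its values were 8.29, 9.93 and 4.97 in WT and 38.1, 31.0 and 38.1 in Setd5+/-, with 28 and 90 reads in all. The ratio was 4.62, with a wide interval of 2.51 to 9.02.

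Atf3 encodes a stress-induced bZIP factor that represses as well as activates, and it rested on the fewest reads of the factors. Its normalized counts were 1.66, 0 and 9.94 in WT and 23.8, 28.6 and 31.0 in Setd5+/-, from 14 and 70 reads. Of the 14 WT reads 12 fell in 1 of the 3 parts. The ratio was 7.19 (3.18 to 18.9) and the log2 fold change 2.57, or 3.98 without WT replicate 3. Atf3 is the single gene of the 10 on chromosome 1, where genes were higher as a group in the Setd5+/- library. The median log2 fold change of 1044 measured chromosome 1 genes was 0.53, against medians from -0.15 to 0.02 on the other chromosomes. On chromosome 1, 25.4% of genes were at least 2-fold higher, against 9.22% elsewhere, and the part of this in the value of Atf3 was not tested.

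The largest ratios belonged to a cofactor and to the effectors that stood close to zero in WT. Nupr1 encodes a small stress-induced chromatin protein. Its values were 6.63, 8.27 and 6.63 in WT and 559, 507 and 510 in Setd5+/-, a ratio of 73.2 (42.8 to 137). Trib3 encodes a pseudokinase that binds ATF4 and Akt and is itself a target of ATF4 and CHOP. Its values were 0, 3.31 and 0 in WT and 579, 686 and 730 in Setd5+/-. The WT value stands on 4 reads, all in 1 part, so counting error alone places the ratio of 603 within 169 to 4773. Its log2 fold change was 8.31, or 9.38 without WT replicate 2. Chac1 encodes an enzyme that breaks down glutathione. Its values were 3.32, 9.93 and 3.31 in WT and 259, 244 and 269 in Setd5+/-, a ratio of 46.6 (25.2 to 96.9). Its log2 fold change was 5.31, or 5.90 without WT replicate 2, which held 12 of its 20 WT reads. In each of these genes the libraries were far apart, and the counting error lies almost wholly in the few WT reads. Error between cultures or clones was not measured.

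The inhibitors of the growth kinase complex TORC1 were abundant in WT and differed little. Sesn2 encodes a leucine sensor that restrains TORC1. Its values were 841, 806 and 826 in WT and 1057, 1111 and 1184 in Setd5+/-, a ratio of 1.36 (1.26 to 1.46). Ddit4 encodes REDD1, which restrains TORC1 through the TSC complex. Its values were 1136, 1115 and 1141 in WT and 1192, 1256 and 1216 in Setd5+/-, a ratio of 1.08 (1.01 to 1.15). Ddit4 stood only at the 58.6th percentile of the log2 fold changes of measured genes.

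**Figure D2:**
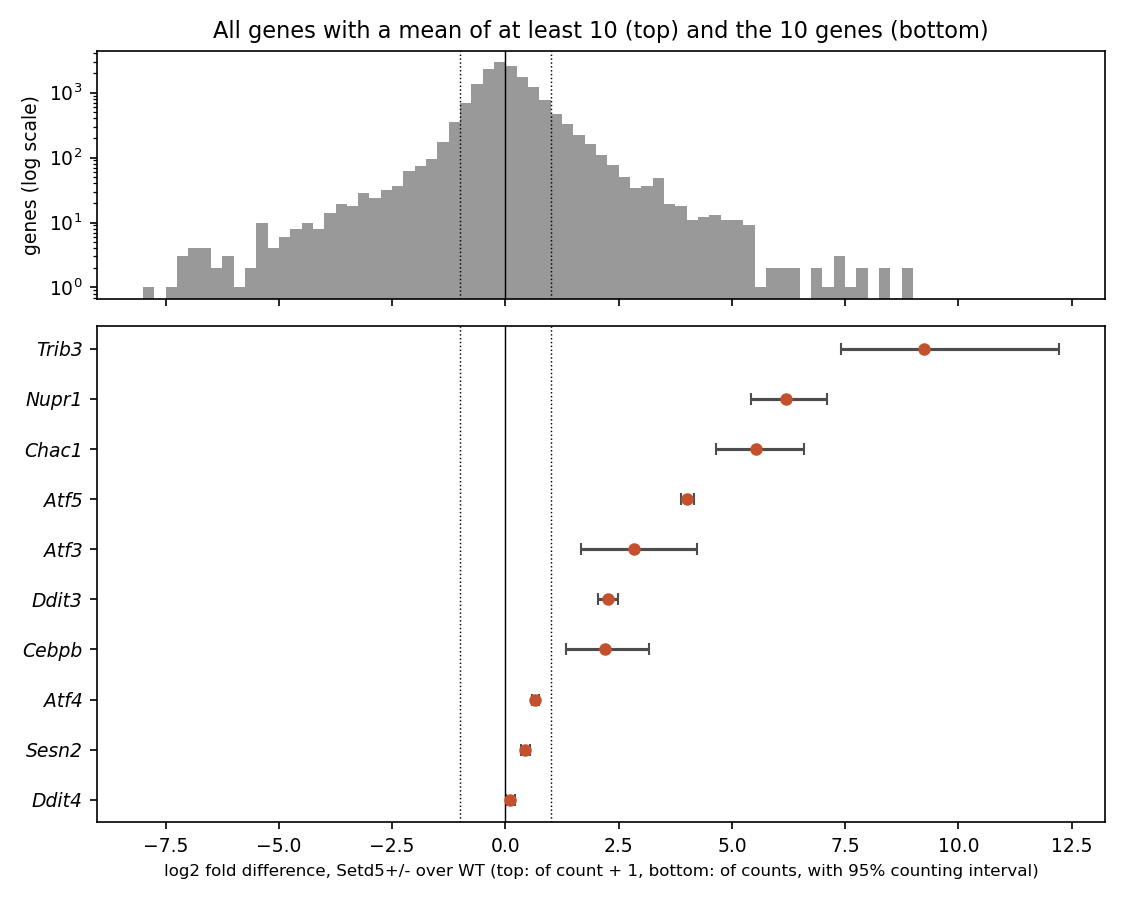
Top, the number of measured genes (log axis) by log2 fold change of normalized count + 1, Setd5+/- over WT. Bottom, the log2 ratio of normalized counts of each of the 10 genes with its 95% counting interval. Dotted lines mark 2-fold. Trib3 (ratio 603), Nupr1 (73.2) and Chac1 (46.6) lie at the right edge of the distribution, with wide intervals, and Atf4, Sesn2 and Ddit4 lie inside 2-fold with narrow ones.

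The order of the 10 levels per kb of exon was rearranged between the libraries. In WT the highest was Ddit4 (644 normalized counts per kb), followed by Atf4 (582), Sesn2 (237), Atf5 (118) and Ddit3 (71.1), and the other 5 were between 0.519 (Trib3) and 5.14 (Cebpb). In Setd5+/- Atf5 was highest (1899), followed by Atf4 (917), Ddit4 (696), Ddit3 (339), Sesn2 (322) and Trib3 (313). Ddit3, Sesn2 and Trib3 lay close together there and their order was not tested. Nupr1 (209) and Chac1 (157) came next, and Cebpb (23.8) and Atf3 (12.9) were lowest. As places among all measured genes, Trib3 passed from the 0.548th to the 90.6th percentile of levels per kb and Atf3 from the 1.97th to the 14.4th. Both had means under 10 normalized counts in WT and counted as measured only through their Setd5+/- counts. The same holds for Nupr1, Chac1 and Cebpb. A low WT place of these genes is thus partly set by the filter, and nothing is read from the change of place.

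Other genes of the pathway were taken from 11 lists, none of them holding the 10. The lists were drawn up by function, with earlier results of these data already known. They were read as counts and medians beside the same for all measured genes, of which 10.3% were at least 2-fold higher. The 4 lists of ATF4 target genes held 56 measured genes, of which 34 (60.7%) were at least 2-fold higher, 3 were 2-fold lower and 47 were above WT, with a median log2 fold change of 1.13. Outside chromosome 1 the count was 32 of 54 (59.3%) by the same measure. No set test was run on these lists, and nothing is read from the contrast of these shares.

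The amino acid transporters were higher in 8 of 12 measured genes by at least 2-fold and lower in 0, with a median log2 fold change of 1.33. Slc43a1 was just short of 2-fold lower (ratio 0.504) and passed it with scaling to total reads and without WT replicate 2, Setd5+/- replicate 2 or Setd5+/- replicate 3. Slc7a5, the light chain of the large neutral amino acid exchanger, went from 373 normalized counts in WT to 10150 in Setd5+/-, a ratio of 27.2 (25.2 to 29.4). Slc7a11, the cystine importer that feeds glutathione synthesis, had 99.7 and 1592, a ratio of 16.0 (13.7 to 18.7). Of the genes for amino acid and one-carbon synthesis, 12 of 16 were at least 2-fold higher and 1 was lower, with a median of 1.55. Aldh1l2, a mitochondrial folate enzyme, went from 224 to 2766 normalized counts (ratio 12.3, 11.1 to 13.7). Asns, asparagine synthetase, went from 209 to 1293 (ratio 6.19, 5.54 to 6.94). The gene that was lower was Got1, the cytosolic aspartate aminotransferase, with 607 in WT and 278 in Setd5+/-.

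The tRNA charging genes were at least 2-fold higher in 8 of 13 and above WT in 13 of 13, within a narrow range and with a median of 1.08. Eprs, the glutamyl-prolyl-tRNA synthetase, had a ratio of 2.63 (2.52 to 2.75), and it lies on chromosome 1. Cars, the cysteinyl-tRNA synthetase, had a ratio of 2.47 (2.24 to 2.71). The remaining effectors were mixed, with 6 of 15 at least 2-fold higher and 2 lower and a median of 0.56. Eif4ebp1, a brake on cap-dependent translation, went from 109 to 607 normalized counts (ratio 5.60, 4.79 to 6.56). Rhbdd1, a rhomboid protease of the ER on chromosome 1 whose place in the list is less settled, went from 160 to 1490. Dusp4, a MAP kinase phosphatase, went the other way, from 119 to 14.7 normalized counts (ratio 0.123, 0.0730 to 0.197). The other gene 2-fold lower, named after its values were seen, was Pmaip1, which encodes the cell death protein NOXA. It had 271 reads in WT and 0 in Setd5+/-. With a floor of 3 read pairs over the Setd5+/- samples in place of 0, it was 32.3-fold lower, which is not a bound. The 95% counting interval of the ratio ended at 0.0386.

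The bZIP partners and relatives of ATF4 differed less as a list. At least 2-fold higher were 4 of 18 and lower 1, with a median of 0.26. Atf6, the ER stress factor, went from 384 to 1612 normalized counts (ratio 4.20, 3.86 to 4.58), and it lies on chromosome 1. Cebpg, a frequent partner of ATF4, had 300 and 1055 (ratio 3.52, 3.19 to 3.89). Jdp2, a relative of Atf3, had a ratio of 2.52 (2.00 to 3.19), and Nfe2l1, a factor for proteasome genes, one of 2.26 (2.17 to 2.36). The gene that was lower, named after its values were seen, was Maff, a small MAF factor, with 38.6 in WT and 6.35 in Setd5+/-. Upstream of ATF4, the eIF2 kinases, their relay and the phosphatase subunits had 1 of 15 measured genes at least 2-fold higher and 0 lower, with a median of -0.06. That gene was Ppp1r15b, the constitutive eIF2 phosphatase subunit (ratio 2.42, 2.28 to 2.57), again on chromosome 1. Dele1, a gene of the relay, was listed but not found under the symbols searched, so these counts leave it out. The list also held Gcn1l1, Impact, Eif2s1 and the Eif2b genes.

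Lists for neighbouring stress programmes served as a comparison. Of 16 ER chaperones and folding genes, which answer mainly to ATF6 and XBP1, 0 were at least 2-fold higher and 0 lower, with a median of 0.11. Short of 2-fold, 10 were above WT, up to a ratio of 1.81 for Sel1l, and 6 were below. Calr, the calcium-binding chaperone, was at a ratio of 0.501. It became the 1 lower gene when counts were scaled to total reads or to the upper quartile. The same held without WT replicate 1, WT replicate 2 or Setd5+/- replicate 3. The ER genes Herpud1 and Ero1l, named after their values were seen, were counted with the remaining ATF4 effectors and not here. Their ratios were 2.87 and 3.88. The heat shock list had 0 of 7 higher and 1 lower, Hspa8 (171 to 46.1 normalized counts, ratio 0.269), a constitutive chaperone gene with processed copies in the genome that can take reads. Targets of p53 had 2 of 17 higher and 1 lower, with a median of -0.02. Gadd45a, a growth arrest gene that ATF4 can also induce, had a ratio of 2.55 (2.05 to 3.19), and Aen, an exonuclease of apoptosis, one of 0.423 (0.376 to 0.475). The list of TORC1 and AMPK genes, in which the paralogues Sesn1, Sesn3 and Ddit4l stand beside genes that act after Sesn2 and Ddit4, had 0 of 18 higher and 0 lower, with a median of 0.06. In the list of Tribbles, Akt and Chac relatives 1 of 8 was at least 2-fold higher and 2 were lower, with a median of -0.24. Trib1 went from 592 to 144 normalized counts (ratio 0.244, 0.207 to 0.285) and Trib2 from 6839 to 2878 (0.421, 0.406 to 0.437), while Trib3 was higher. Chac2, the closest relative of Chac1, had 116 and 90.1. The gene that was higher, named after its values were seen, was Ggct, another gamma-glutamylcyclotransferase, with 16.0 and 39.7 normalized counts (ratio 2.48, 1.55 to 4.03).

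**Figure D3:**
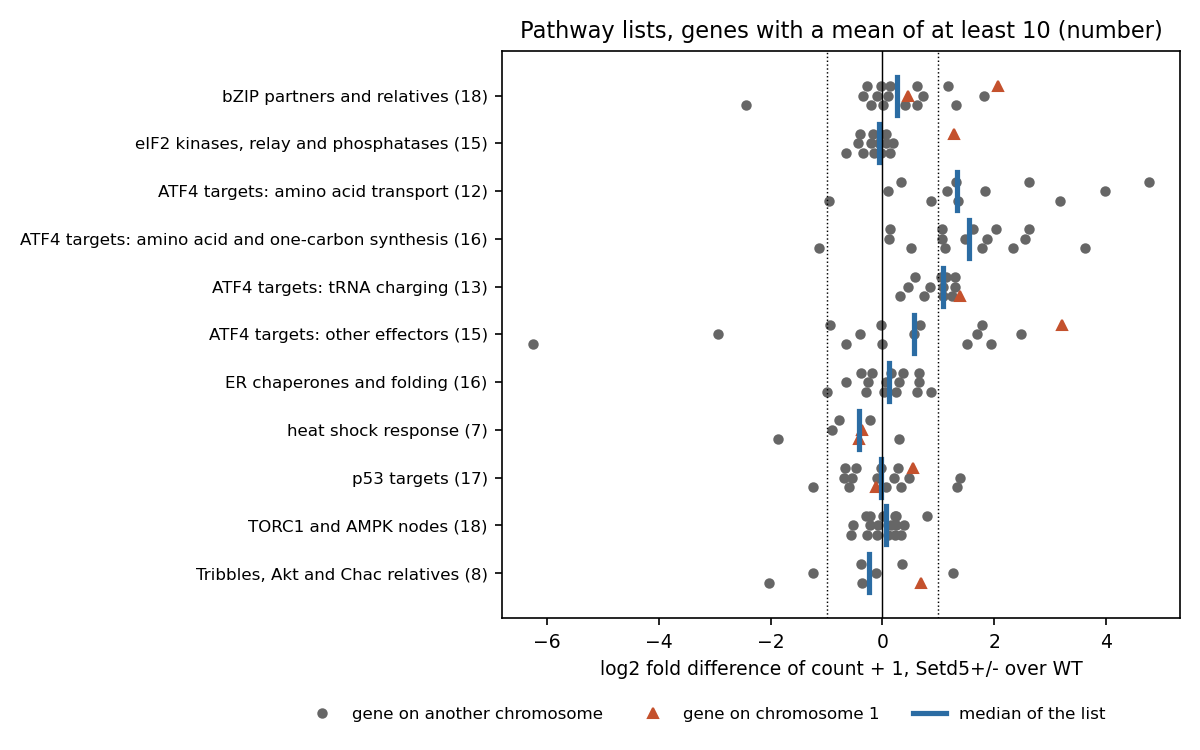
Log2 fold change of normalized count + 1, Setd5+/- over WT, of each measured gene in the 11 pathway lists. Grey circles are genes on other chromosomes, orange triangles genes on chromosome 1, blue bars list medians and dotted lines 2-fold. The medians of the ATF4 target lists for transport, synthesis and tRNA charging lie beyond 1 (1.33, 1.55 and 1.08), and those of the other 8 lists lie between -0.42 and 0.56.

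The nearest measured gene on each side that does not overlap was compared for every one of the 10, since position was not part of the choice. Genes that overlap one of the 10 are described apart. Of the 20 neighbours, 2 were at least 2-fold higher and 0 lower, with a median log2 fold change of -0.10. Over all measured genes 10.3% were higher and 6.14% lower by 2-fold, with a median of -0.02. One of the 2 higher neighbours was Nsl1, 83.8 kb from Atf3 on chromosome 1, with a ratio of 2.11 (1.78 to 2.49). The other was Apobr, 34.1 kb from Nupr1, with 2 reads or 0.552 normalized counts in WT and 24.2 normalized counts in Setd5+/- (ratio 43.9, 7.46 to 1641). The neighbours of Trib3 were Rbck1 (ratio 1.13) and Sox12 (0.560), those of Chac1 were Dll4 (0.743) and Ino80 (0.862), and those of Atf5, apart from the genes that overlap it, were Vrk3 (0.873) and Tbc1d17 (1.24).

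**Figure D4:**
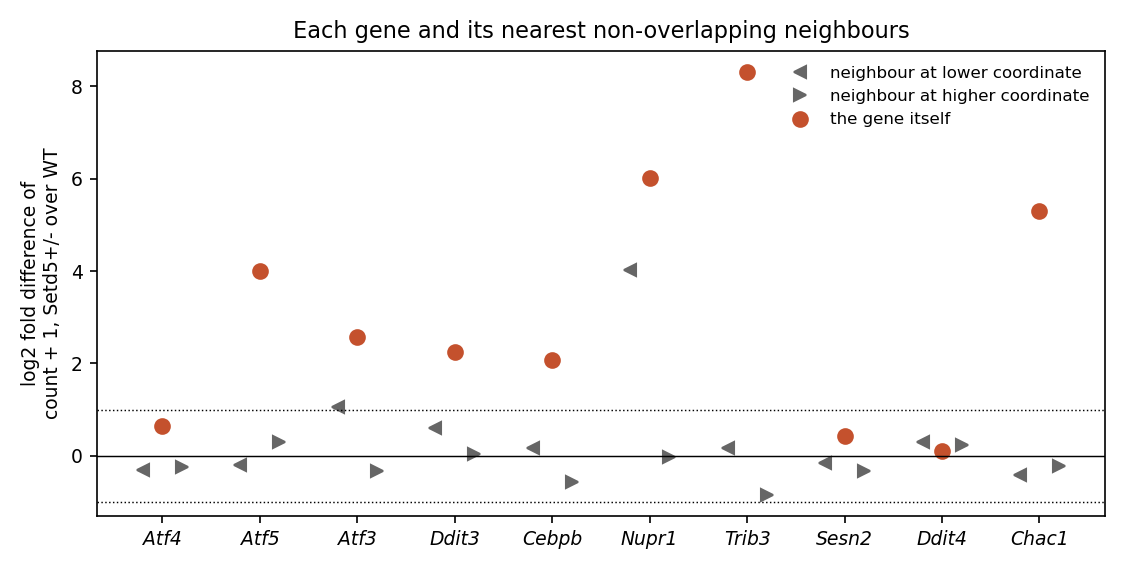
Log2 fold change of normalized count + 1, Setd5+/- over WT, of each of the 10 genes (orange circles) and of its nearest measured neighbours that do not overlap it (grey triangles). Dotted lines mark 2-fold. Of the 20 neighbours, Apobr beside Nupr1 and Nsl1 beside Atf3 lie above the upper line and 0 lie below the lower one.

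Some of the 10 overlap genes on the opposite strand, and the library kit does not mark the strand of the RNA. Of 4 measured genes that overlap one of the 10, 3 were at least 2-fold higher and 0 lower. The shares over all measured genes were 10.3% and 6.14%. Atf5 shares 82 bases of exon, 4.11% of its exon length, with Nup62 and with Il4i1. The level of Nup62 was 425 normalized counts in WT and 962 in Setd5+/-, and that of Il4i1 was 58.3 and 615. Ddit3 shares 68 bases with Mars, which had 866 and 2063 and is itself in the tRNA charging list. Cebpb shares 312 bases, 20.7% of its exon length, with Tmem189, which had 238 and 256. Reads from the shared bases cannot be told apart. No transcript of another gene matched one of the 10 at 90% identity or more outside these overlaps and a second annotated locus of the Ddit3 symbol, identical over 105 bases, which was not analysed here.

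Markers of cell types differed between the libraries along with these genes. Beside the counts below, 10.3% of all measured genes were at least 2-fold higher and 6.14% lower. Of the NSC markers 9 of 9 were measured, with 0 at least 2-fold higher and 2 lower, and their summed level ranged over 74334 to 74494 for WT and over 53715 to 54411 for Setd5+/-. Fabp7 carried this difference, and the other 8 summed to 38263 to 38557 for WT and 42147 to 43028 for Setd5+/-. Of 6 measured neuronal markers 0 were higher and 4 lower by 2-fold, and of 10 listed 2 were at or under 3 reads in WT and 3 in Setd5+/-, with sums of 10971 to 11401 and 12569 to 12694 that are mostly Map2. Of 5 measured astrocyte markers 3 were higher and 2 lower, with sums of 5422 to 5550 and 2422 to 2661. Slc1a2 carried the lower sum, with a mean of 4678 in WT and 1225 in Setd5+/-, while Gfap, Aqp4 and S100b were the 3 higher. Of 7 measured oligodendrocyte lineage markers 0 were higher and 2 lower, with sums of 40997 to 41788 and 23688 to 24533. These sums are mostly Olig1 and Olig2. Proliferation markers had 0 of 6 higher and 1 lower. None of the 8 mesenchymal markers was measured, 1 of 6 microglial and 1 of 5 endothelial markers was, and the defining microglial genes Cx3cr1 and Ptprc were at 0 in both libraries. Fewer cells of a type and less RNA per cell cannot be told apart in bulk RNA, and the part of these shifts in the values of the 10 genes was not tested.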

How the data were processed

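RNA-seq of NSCs kept at 21% O2 gave 3 samples labelled WT and 3 labelled Setd5+/-. Libraries were made with an unstranded TruSeq RNA v2 kit and sequenced from both ends. Per the labels and the study's methods, the authors trimmed adaptors with Trimmomatic, aligned reads with Bowtie2 to mm10, counted them per gene and divided the counts by DESeq2 size factors. Versions and the counting program are not given in the sources used here. Bowtie2 does not split reads over introns, which lowers the counts of spliced genes. The deposited values are these normalized counts. The authors' own fold changes and p-values stand beside them and were not used.

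The deposited values had lost their decimal points. These were restored by placing each point where the value was a whole number of reads (1 read was worth 0.827 to 0.829 normalized counts in WT samples and 1.19 in Setd5+/- samples). The deposited mean settled the place in 1116 genes, and all 52438 means were then matched. This restoration and the interval were tested on simulated data.

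Log2 fold changes are log2 of the ratio of means with 1 added to each. This understates differences of low genes. Ratios without this addition carry a 95% Clopper-Pearson interval of the split of reads between the libraries, with reads divided by 1.95 because both ends of a pair were counted. Genes were kept where their mean reached 10 normalized counts. Exons, neighbours and overlaps are from GENCODE M21 (GRCm38), promoters from RefSeq, transcript matches from blastn 2.17.0, and the rest was computed with Python 3.11.15, numpy 2.4.6, pandas 2.3.3 and scipy 1.17.1.

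The 10 genes and all lists were chosen with earlier results of these data known. Genes named are the 10, their neighbours and overlapping genes, Setd5, and list members past 2-fold with a mean of 50 or more normalized counts (all of them for the bZIP, eIF2 and Tribbles lists, otherwise the 2 largest differences in each direction). Others are named where a count of few genes called for it. Alternatives were another pseudocount, scaling, filter or fold, and leaving out each sample. Leaving out chromosome 1 genes was added after the data were seen.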

Additional observations from a re-analysis of the deposited data

How the results depend on the processing

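The 10 genes kept their direction under every pseudocount, scaling and left-out sample tried, and 7 stayed at least 2-fold higher in each. The number was 5 among genes with a mean of at least 50, 8 at 1.5-fold and 6 without chromosome 1. Log2 fold changes ranged from 0.61 to 0.69 for Atf4, 3.97 to 4.06 for Atf5, 0.07 to 0.15 for Ddit4, 0.40 to 0.48 for Sesn2, 2.18 to 2.30 for Ddit3, 1.68 to 2.27 for Cebpb, 5.45 to 6.11 for Nupr1, 4.64 to 5.90 for Chac1, 1.89 to 3.98 for Atf3 and 6.78 to 9.38 for Trib3. The value of Atf3 was 3.98 without WT replicate 3, which held 12 of its 14 WT reads, and that of Trib3 9.38 without WT replicate 2, which held all 4 of its WT reads. Without the same sample Chac1 was at 5.90. Counts over all genes moved with the filter and the fold by construction. With a mean of at least 50 they were 1032 higher and 588 lower, with no filter 3141 and 2400, and at 1.5-fold 3201 and 2521. In the pathway lists together 42 genes were higher and 8 lower at 2-fold. At 1.5-fold the lower count was 19, and the higher count also rose, by less than 1.5 times. Leaving out chromosome 1 genes gave 1403 higher and 970 lower, and 38 and 8 in the lists. Leaving out 1 sample at a time moved none of these totals by over 1.5 times. In single lists it made 1 transporter and 1 ER chaperone gene 2-fold lower, and without WT replicate 1 the Tribbles list had 2 genes higher. No paired analysis was possible because the numbered samples of a genotype are parts of 1 library and the differences come from no test. With 1 library a genotype, depth limits only Atf3, Cebpb, Nupr1, Trib3 and Chac1 among the 10, which had 4 to 28 reads in WT. Differences between cultures or clones were not measured.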
